A study of Mus musculus with 24 samples.

Results

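The 10 genes examined were the cyclic AMP response element binding (CREB) factors and their coactivators measured in the mouse hippocampus. They were Creb1, Crem, Atf1, Atf2, Creb3, Creb5 and Creb3l1, which encode basic leucine zipper transcription factors, and Crtc1, Crtc2 and Crtc3, which encode CREB-regulated transcription coactivators. They were found by gene symbol among the 55471 genes of the raw count table, and all 10 passed the filter on low counts, as did 18251 genes in all. Hippocampal RNA was sequenced from 12 C57BL/6 mice aged 3 to 6 months, 3 in each of 4 groups. The groups were control mice in standard cages (SC), CBP-ifKO mice in SC, control mice in an enriched environment (EE) and CBP-ifKO mice in EE. CBP-ifKO mice carried floxed alleles of Crebbp, the gene of the CREB-binding protein CBP, together with an inducible Cre recombinase under the Camk2a promoter, which is active in forebrain excitatory neurons. Control mice were littermates with the floxed alleles and no Cre, and mice of both genotypes had received tamoxifen. The other cells of the hippocampus retained an intact Crebbp gene in CBP-ifKO mice. EE was a large cage with toys and running wheels in which the mice had lived for about a month.

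CREB is held at cyclic AMP response elements (CREs) in promoters and becomes active when kinases that respond to calcium or cyclic AMP phosphorylate it. The phosphorylated factor then recruits CBP or its paralog p300, which acetylate histones. CRTC proteins reach the same complex by another route, since calcineurin dephosphorylates them, they enter the nucleus and they bind the leucine zipper of CREB, whereas salt-inducible kinases keep them in the cytoplasm. In hippocampal neurons this machinery is known for its part in activity-driven transcription, long-term plasticity and memory.

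Crtc1 carried the main difference among the 10 genes, so its promoter is shown whole, on its own strand, from 250 bases before to 50 bases after the transcription start. The sequence comes from RefSeq (build GRCm38.p6, minus strand, chr8:70439524-70439823).
Crtc1: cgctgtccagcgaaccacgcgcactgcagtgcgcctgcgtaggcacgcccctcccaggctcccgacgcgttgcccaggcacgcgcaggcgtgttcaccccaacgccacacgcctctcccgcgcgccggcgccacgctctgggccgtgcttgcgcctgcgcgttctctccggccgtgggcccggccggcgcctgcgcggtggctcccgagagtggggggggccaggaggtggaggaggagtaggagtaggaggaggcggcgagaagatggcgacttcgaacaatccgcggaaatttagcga
It held neither the full CRE, TGACGTCA, nor its shorter core, TGACG, on either strand. RefSeq windows of this kind were matched for 7 of the 10 genes (Creb1, Atf1, Atf2, Creb3, Creb5, Crtc1 and Crtc3). A full CRE was found in 1 of them, a window of Creb5, and the core in 2, those of Creb5 and Atf1, where each full CRE also counts as a core. Among all 27025 RefSeq genes with such a window, 2.03% held the full CRE and 23.0% the core. To show the element itself, the windows of Creb5 and of the CREB target genes described further on that held a full CRE are given as 40 bases centred on it, with the CRE in capitals.
Creb5: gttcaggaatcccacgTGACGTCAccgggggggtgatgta
Sst: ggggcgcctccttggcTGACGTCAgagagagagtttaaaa
Scg2: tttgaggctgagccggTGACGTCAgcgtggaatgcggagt
Dusp1: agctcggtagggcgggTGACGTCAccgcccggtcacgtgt
Cartpt: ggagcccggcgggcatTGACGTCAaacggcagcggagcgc
They lay at chr6:53287242-53287281 on the plus strand for Creb5 and, on the minus strand, at chr16:23890869-23890908 for Sst, chr1:79440071-79440110 for Scg2, chr17:26508592-26508631 for Dusp1 and chr13:99900772-99900811 for Cartpt. These matches are letters in a window and say nothing of binding in these samples.

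Depth and labels were checked first. The libraries held between 26874015 and 27971488 counts in control mice and between 28582210 and 37448388 in CBP-ifKO mice. Every count of the CBP-ifKO libraries was even, whereas 54.0% to 55.1% of the non-zero counts were odd in control libraries. The CBP-ifKO totals may therefore be 2 times the true number of reads, which would put their depth below that of the control libraries. With these counts halved, Crtc1 was still called in each of the 3 comparisons of genotype described further on. Crebbp, the targeted gene, was measured at 73.9, 81.9 and 70.7 CPM (counts relative to the TMM-scaled library size) in control SC and at 50.6, 51.6 and 50.0 in CBP-ifKO SC, and at 72.3, 77.1 and 69.6 in control EE and 44.5, 48.3 and 46.7 in CBP-ifKO EE. It was lower in CBP-ifKO mice by 0.61 on the log2 scale over both housings (log2 fold change -0.61, SE 0.04, adjusted p = 3.38e-07, edgeR quasi-likelihood test with Benjamini-Hochberg adjustment). This gene-level count also takes in exons outside the deleted part and RNA of cells without Cre. Ep300, which encodes p300, was not called (log2 fold change 0.12 over both housings, adjusted p = 0.408), although in SC it was called higher without control replicate 2 (0.36, adjusted p = 0.00593). Markers of excitatory neurons were abundant in every library, with 5 markers summing to between 5642 and 6914 CPM, and no marker of any of the 9 cell types checked was at 0. The summed choroid plexus markers reached 1249 CPM in control EE replicate 1 and lay between 35.5 and 62.1 CPM in the other mice.

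Levels of different genes were compared over the 12 mice per length of their exons, as TPM. For this, each count is divided by exon length and scaled to the same total in each library. The length joins all annotated exons of a gene, 25021 bases for Creb5 and 2372 for Creb3. It is not that of the transcript forms present here, so the order depends on the annotation. Crtc1 stood first, with a median of 88.4 TPM (range 66.9 to 99.2). Creb3, which encodes a membrane-bound factor of the endoplasmic reticulum, followed with a median of 66.8 TPM (59.7 to 79.8), and Atf2, whose product pairs with Jun and is activated by stress kinases, with 63.2 TPM (54.5 to 69.1). Over all 12 mice the ranges of Crtc1 and Creb3 overlapped, but within groups they did so in CBP-ifKO EE alone, where the mean of Creb3 (76.0 TPM ± 3.93, SD, n = 3) was the higher (Crtc1 71.1 TPM ± 6.67). In the other 3 groups every mouse had more Crtc1 than any had Creb3, as in control SC with 93.0 to 99.2 TPM against 60.2 to 65.5. Creb3 and Atf2 overlapped in every group but CBP-ifKO EE.

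Below them, Crtc2 had a median of 35.3 TPM (31.4 to 38.7) and Creb1 one of 18.0 TPM (15.8 to 19.9), each clear of its neighbours in all 12 mice. Atf1 (11.8 TPM), Crtc3 (10.8 TPM) and Crem (9.78 TPM) lay close together, and over the 12 mice the ranges of Atf1 and Crtc3 overlapped, as did those of Crtc3 and Crem. Creb3l1, another factor of the endoplasmic reticulum, reached 4.0 TPM (2.79 to 5.49) and Creb5 0.908 TPM (0.757 to 1.23). Creb5 stood at the 9.0th percentile of the genes tested and Crtc1 at the 88.0th. Counts were summed over the exons of each gene, on GRCm38. Creb1 spans chr1:64532645-64604548 and Crtc2 chr3:90254163-90264125, both on the plus strand, as are Creb3 (chr4:43562332-43567060), Creb5 (chr6:53287270-53700376) and Atf1 (chr15:100227819-100261244). Crtc3 (chr7:80586627-80688877), Atf2 (chr2:73816509-73892639), Creb3l1 (chr2:91982328-92024502) and Crem lie on the minus strand.

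**Figure D1:**
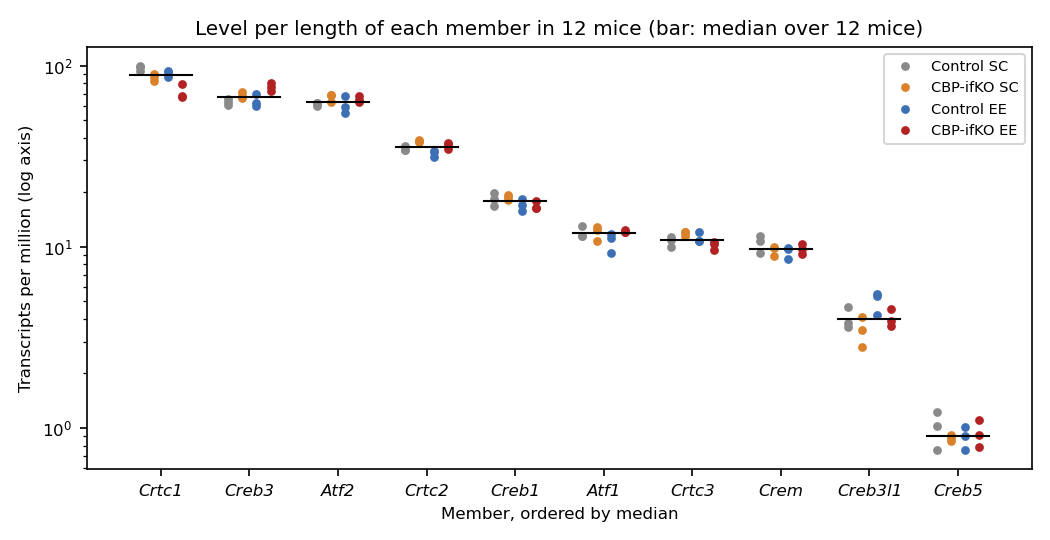
Level per length of the 10 genes in each of the 12 mice, in TPM on a log axis, ordered by the median over 12 mice (black bars), with 1 point per mouse coloured by group. Crtc1, Creb3 and Atf2 lie at the top, with Creb3 above Crtc1 on average in CBP-ifKO EE alone (76.0 against 71.1), and Creb5, with a median of 0.908, lies at the bottom.

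Within the subfamilies, the shares of the summed TPM differed between the genes and little between most groups. Creb1, the founding CREB gene, made up 45.0% ± 3.83 (SD, n = 3) of the TPM summed over Creb1, Crem and Atf1 in control SC and 43.6% ± 0.6 in CBP-ifKO EE. Crem, whose locus also yields the repressor ICER from an internal promoter that gene-level counts do not separate, made up between 23.8% and 25.6% as a group mean. Among the CRTC genes, Crtc1 made up 68.0% ± 1.01 in control SC and 67.4% ± 1.1 in control EE, against 63.2% ± 0.847 in CBP-ifKO SC and 60.4% ± 1.53 in CBP-ifKO EE. Each CBP-ifKO share of Crtc1, at most 64.0%, lay below each control share, at least 66.2%.

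The first question was whether the loss of CBP from excitatory neurons goes with altered expression of its partner factors in mice housed in SC. Crtc1 was the 1 gene of the 10 that passed the test. It was measured at 289, 278 and 268 CPM in control SC and at 246, 239 and 223 CPM in CBP-ifKO SC, so that every CBP-ifKO mouse lay below every control mouse. Crtc1 fell by 0.24 on the log2 scale (log2 fold change -0.24, SE 0.06, 95% interval -0.36 to -0.12, adjusted p = 0.029, edgeR quasi-likelihood test), a fold of 0.847. Over all 17532 genes tested in SC, 5.52% were called and 4.02% were called lower, and 13.8% had every CBP-ifKO mouse below every control mouse. The call held with 1 of the 6 mice left out (control SC replicate 2) and was lost without any other, with adjusted p of 0.0574 without CBP-ifKO replicate 1, 0.0592 without control replicate 3, 0.0807 without control replicate 1, 0.101 without CBP-ifKO replicate 2 and 0.133 without CBP-ifKO replicate 3. In these fits the log2 fold change stayed between -0.27 and -0.20.

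In EE, Crtc1 was again the 1 gene of the 10 that passed. Its values were 257, 267 and 272 CPM in control EE and 184, 217 and 189 CPM in CBP-ifKO EE, without overlap. It fell by 0.42 on the log2 scale (log2 fold change -0.42, SE 0.07, 95% interval -0.58 to -0.27, adjusted p = 0.00755, edgeR quasi-likelihood test), a fold of 0.746. Here 4.57% of 17625 genes were called, 3.53% were called lower, and 13.9% had all CBP-ifKO mice below all control mice. The call was lost without CBP-ifKO EE replicate 3 (adjusted p = 0.0618) and held without control EE replicate 1, the mouse with the high choroid plexus markers (adjusted p = 0.00919).

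When both housings were fitted together over the 12 mice, which reuses the mice of the 2 comparisons above, Crtc1 had a log2 fold change of -0.34 (SE 0.05, 95% interval -0.43 to -0.24, adjusted p = 1.17e-04, edgeR). All 6 CBP-ifKO mice lay below all 6 control mice, and the call held with each mouse left out in turn (adjusted p from 3.28e-05 to 6.46e-04). The share of 18251 genes called in this comparison was 16.9%, with 10.3% called lower and 5.35% with all 6 CBP-ifKO mice below all 6 controls. Read against these shares, 1 of 10 genes called lower is about what all genes show in this comparison. The Crtc1 gene (ENSMUSG00000003575) spans 70382355 to 70439579 on chromosome 8 of GRCm38, minus strand, and its exons overlapped those of no other gene.

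In bulk tissue, fewer cells of a type and less RNA per cell cannot be told apart. The 5 excitatory neuron markers summed to 6177 to 6600 CPM in control SC and 6017 to 6448 CPM in CBP-ifKO SC, and to 6328 to 6914 CPM in control EE and 5642 to 6442 CPM in CBP-ifKO EE. The summed levels thus overlapped in both housings, but most of each sum was Camk2a. It alone averaged 4095 CPM in control SC and 4195 CPM in CBP-ifKO SC. The Cre transgene, absent from control mice, uses the Camk2a promoter and, per the paper, was made with a large construct (BAC). In its H3K27ac data the paper left out regions matching the BAC, where added reads follow gene dose. The part of the transgene in the Camk2a counts was not tested. Over both housings 2 of the 5 markers were called lower, against 10.3% of all genes, and 3 were not called. The 2 were Nrgn, a calmodulin-binding protein of dendrites (log2 fold change -0.52, adjusted p = 7.52e-06, edgeR), and the transcription factor Neurod6 (-0.17, adjusted p = 0.0129). Nrgn did not overlap in either housing, at 531 to 598 CPM in CBP-ifKO SC against 698 to 820 in control SC and 513 to 576 in CBP-ifKO EE against 784 to 914 in control EE. Sums that were lower in CBP-ifKO mice without overlap were seen in both housings for oligodendrocyte precursors (96.2 to 110 CPM against 122 to 142 in SC, and 102 to 113 against 124 to 132 in EE) and microglia (205 to 226 against 229 to 233, and 195 to 202 against 216 to 234). In SC alone they were also seen for endothelial cells (136 to 148 against 161 to 166), astrocytes (1432 to 1461 against 1509 to 1566), interneurons (666 to 695 against 708 to 741) and choroid plexus (35.6 to 39.0 against 47.3 to 53.9). In the last 3 lists 1 marker each had a higher mean in CBP-ifKO SC than in control SC. These were Aldh1l1 of astrocytes (46.6 against 42.4 CPM), Vip of interneurons (25.5 against 22.6) and Kl of choroid plexus (27.8 against 23.9). Ttr, also of choroid plexus, was at 6.02 to 7.73 CPM against 20.7 to 26.1. Sums for oligodendrocytes and fibroblasts overlapped in both housings. The part of any of these lists in the Crtc1 difference was not tested.

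**Figure D2:**
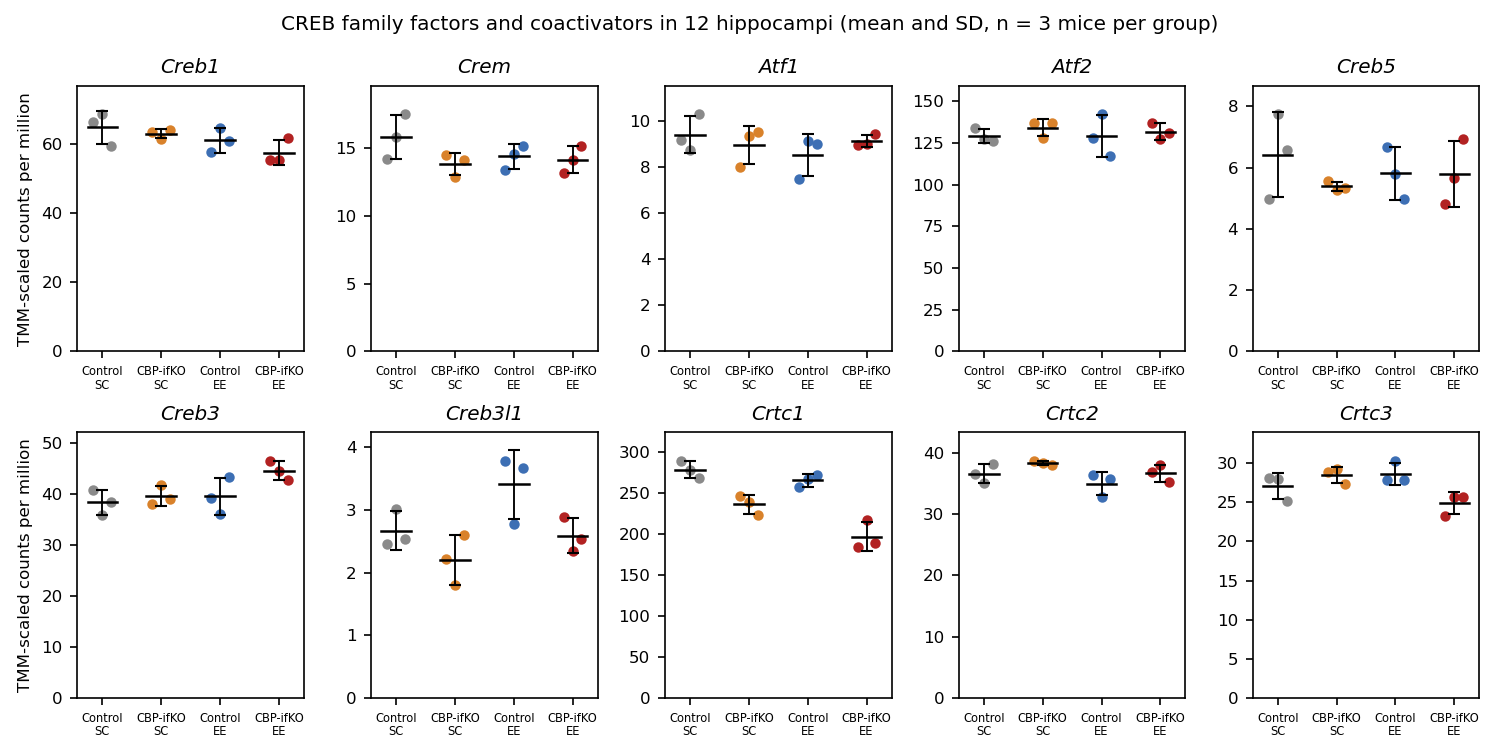
TMM-scaled CPM of each of the 10 genes by group, with 1 point per mouse and the mean and SD of 3 mice per group, each axis starting at 0. Crtc1 is the gene whose CBP-ifKO mice (184 to 246) all lie below the control mice (257 to 289).

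The other CRTC genes did not pass in any comparison of genotypes. Crtc2, the form best known from fasting metabolism in the liver, was measured at 36.5, 35.1 and 38.2 CPM in control SC and 38.7, 38.3 and 38.0 CPM in CBP-ifKO SC. In EE it was at 36.4, 32.8 and 35.7 CPM in control mice and 36.9, 38.0 and 35.2 CPM in CBP-ifKO mice. The groups overlapped in both housings, and over both the log2 fold change was 0.07 (95% interval -0.02 to 0.16, adjusted p = 0.313, edgeR).

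Crtc3 was measured at 28.1, 28.0 and 25.2 CPM in control SC and 28.9, 29.3 and 27.3 CPM in CBP-ifKO SC, with overlap. In EE its values were 27.8, 30.3 and 27.8 CPM in control mice and 23.3, 25.7 and 25.7 CPM in CBP-ifKO mice, and the groups did not overlap. The log2 fold change was 0.07 in SC (95% interval -0.09 to 0.23, adjusted p = 0.627) and -0.19 in EE (95% interval -0.36 to -0.03, adjusted p = 0.173, edgeR). Crtc3 thus was not called in either housing.

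Creb1 differed little between genotypes. It was at 66.4, 68.5 and 59.5 CPM in control SC and 63.5, 61.4 and 64.0 CPM in CBP-ifKO SC, and at 57.5, 64.6 and 60.9 CPM in control EE and 55.3, 55.4 and 61.6 CPM in CBP-ifKO EE. The groups overlapped in both housings. Over both, the log2 fold change was -0.06 (95% interval -0.16 to 0.04, adjusted p = 0.406, edgeR), so that a fold below 0.893 or above 1.03 lay outside the interval.

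Crem was at 14.2, 15.8 and 17.5 CPM in control SC and 14.5, 12.9 and 14.1 CPM in CBP-ifKO SC. In EE it was at 13.4, 14.6 and 15.2 CPM in control mice and 13.2, 14.1 and 15.2 CPM in CBP-ifKO mice. Its log2 fold change was -0.19 in SC (95% interval -0.41 to 0.02, adjusted p = 0.291) and -0.02 in EE (95% interval -0.23 to 0.20, adjusted p = 0.955). Opposite-strand exons of Gm6225 cover 8.01% of the exon bases of Crem, and reads in them cannot be assigned without a stranded count.

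Atf1, the third CREB-like factor, was at 9.21, 8.76 and 10.3 CPM in control SC and 8.01, 9.35 and 9.53 CPM in CBP-ifKO SC. In EE it was at 7.50, 9.15 and 9.0 CPM in control mice and 8.99, 9.02 and 9.46 CPM in CBP-ifKO mice. The groups overlapped, and over both housings the log2 fold change was 0.01 (95% interval -0.15 to 0.18, adjusted p = 0.927, edgeR). A pseudogene, Atf1-ps, shares 11.45% of the 50-base stretches of Atf1, so its counts are less certain.

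Atf2 was at 134, 127 and 126 CPM in control SC and 137, 128 and 137 CPM in CBP-ifKO SC, and at 128, 142 and 117 CPM in control EE and 137, 127 and 131 CPM in CBP-ifKO EE. The groups overlapped in both housings, and over both the log2 fold change was 0.04 (95% interval -0.05 to 0.14, adjusted p = 0.564, edgeR). Creb5, a relative of Atf2, was counted at between 4.81 and 7.74 CPM over the 12 mice, or 134 to 236 counts. Its log2 fold change over both housings was -0.13 with an interval from -0.39 to 0.13, and mice of 1 group differed widely (4.97, 7.74 and 6.57 CPM in control SC).

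Creb3 was at 40.8, 35.8 and 38.5 CPM in control SC and 38.1, 41.8 and 39.0 CPM in CBP-ifKO SC. In EE it was at 39.3, 36.1 and 43.3 CPM in control mice and 46.5, 44.6 and 42.7 CPM in CBP-ifKO mice, with 1 CBP-ifKO mouse below the highest control mouse. The log2 fold change in EE was 0.18 (95% interval 0.01 to 0.35, adjusted p = 0.231, edgeR) and was not called. Exons of Tln1 on the opposite strand cover 15.18% of the exon bases of Creb3, and those of Gba2 5.61%.

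Creb3l1 was the gene of the 10 with the second smallest adjusted p over both housings. It was at 2.45, 3.02 and 2.54 CPM in control SC, 2.21, 1.80 and 2.6 CPM in CBP-ifKO SC, 3.78, 2.78 and 3.66 CPM in control EE and 2.89, 2.35 and 2.53 CPM in CBP-ifKO EE. The groups overlapped in each housing. Its log2 fold change was -0.33 (SE 0.13, 95% interval -0.61 to -0.05, adjusted p = 0.0996, edgeR), which did not pass.

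The second question was whether EE goes with altered expression of these factors. In control mice none of the 10 genes was called, their log2 fold changes lay between -0.14 and 0.35, and none had an unadjusted p below 0.05, as 4.21% of all genes did. Of all 18251 genes, 0% were called by edgeR in this comparison, although 768 had such an unadjusted p and DESeq2 called 15. Crtc1 had a log2 fold change of -0.07 (95% interval -0.21 to 0.07, adjusted p = 0.999), with 257 to 272 CPM in EE against 268 to 289 CPM in SC.

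In CBP-ifKO mice none of the 10 was called either, against 0.011% (2 genes) of all tested, and 3 (Crtc1, Crtc3 and Creb3) had an unadjusted p below 0.05, as 8.59% of all genes did. Crtc1 was at 184 to 217 CPM in EE and 223 to 246 CPM in SC, without overlap, with a log2 fold change of -0.26 (SE 0.06, 95% interval -0.40 to -0.13, adjusted p = 0.31, edgeR). This was called by DESeq2 (adjusted p = 0.0343) and when genes with low counts were kept in edgeR (adjusted p = 0.00959). Crtc3 (log2 fold change -0.20, adjusted p = 0.473) and Crtc2 (-0.06, adjusted p = 0.804) also had every EE mouse below every SC mouse, and Creb3 every EE mouse above (0.17, adjusted p = 0.534). For Crtc2 the highest EE mouse and the lowest SC mouse both round to 38.0 CPM. Groups did not overlap for 15.9% of all genes in this comparison, with 8.17% lower and 7.69% higher in EE.

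Over both genotypes, which share the mice of the comparisons just given, none of the 10 genes was called for EE against SC, and 0.164% of all genes were. Unadjusted p was below 0.05 for 3 of them (Crtc1, Creb1 and Creb3l1) and for 9.44% of all genes. The smallest adjusted p among the 10 belonged to Crtc1 (log2 fold change -0.17, SE 0.05, adjusted p = 0.207, edgeR), which DESeq2 called at 0.0482. Creb1 had a log2 fold change of -0.11 (95% interval -0.21 to -0.01, adjusted p = 0.477) and Creb3l1 one of 0.29 (95% interval 0.01 to 0.57, adjusted p = 0.513).

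**Figure D3:**
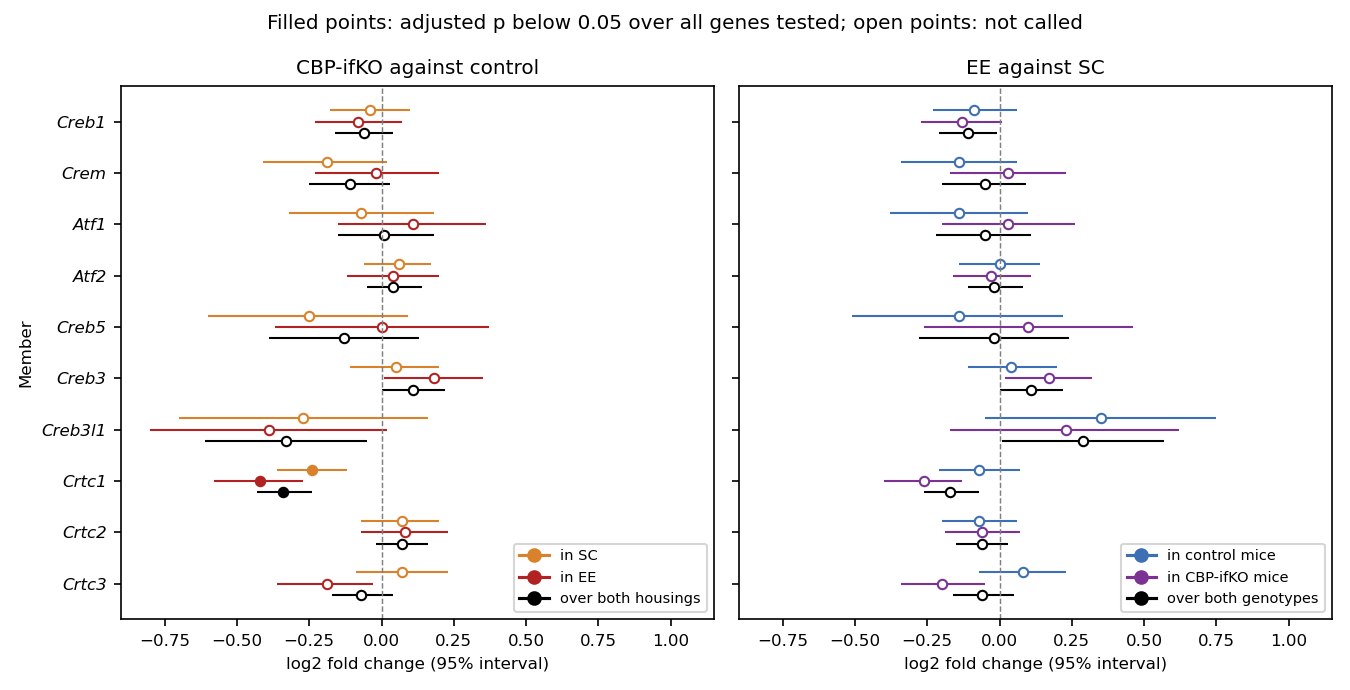
Log2 fold changes of the 10 genes with 95% intervals, CBP-ifKO against control (left) and EE against SC (right), within each level of the other factor and over both. Filled points passed an adjusted p of 0.05, and these are the 3 genotype differences of Crtc1 (-0.24, -0.42 and -0.34).

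The difference between the genotype effects in EE and SC was tested as an interaction. None of the 10 genes and 0% of all genes were called by edgeR, with 574 genes (3.15%) at an unadjusted p below 0.05 and, among the 10, Crtc1 and Crtc3. The interaction of Crtc1 was -0.19 (95% interval -0.38 to -0.00, adjusted p = 1) and that of Crtc3 was -0.28 (95% interval -0.49 to -0.07, adjusted p = 1). The genotype effect on Crtc1 was thus not shown to differ between the housings, and the interval leaves room for a difference of up to 0.38 in the direction of a lower level in enriched CBP-ifKO mice.

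The profile of Crtc1 over the 12 mice was most like those of Cdhr1 (Pearson r = 0.979 of log2 CPM), Jph4 (0.979) and Mef2d (0.975) among 18251 genes. These correlations span groups that differ in level, and after the group means were removed they were 0.925, 0.814 and 0.979. By the GC share of the longest transcript, Crtc1 stood at the 85.4th percentile of the genes tested. Cdhr1 stood at the 57.5th, Jph4 at the 96.4th and Mef2d at the 78.9th. The part of GC content in these correlations was not tested. Creb1 was most like Pax6 (0.883), Trp63 (0.881) and Hecw1 (0.86), and Crem most like Gm44949 (0.872), Eif4a1 (0.836) and Gm46378 (0.833). The values share libraries and scaling factors and are descriptions.

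The remainder of the pathway is given by its roles, over both housings. Among 34 genes that act upstream of CREB and CRTC, 9 were lower in CBP-ifKO mice and 0 higher, with a list median of -0.07 against 0.00 over all genes and 10.3% of all genes called lower and 6.64% called higher. With GC offsets 14 of the 34 were called, counting both directions. Camkk2 and Camkk1, the kinases that switch on CaMKIV, were among them, as was Camk4 itself. Camkk2 was at 152 to 173 CPM in control SC and 105 to 119 CPM in CBP-ifKO SC, and its log2 fold change over both housings was -0.67 (SE 0.04, adjusted p = 1.01e-07, edgeR). Camkk1 had a log2 fold change of -0.65 (adjusted p = 1.96e-07) and Camk4 one of -0.38 (adjusted p = 0.00185). The calcineurin subunits Ppp3r1 (-0.31, adjusted p = 1.68e-05) and Ppp3ca (-0.25, adjusted p = 6.36e-04), which act on CRTC proteins, were lower too, whereas the third subunit on the list, Ppp3cb, was not called (-0.07, adjusted p = 0.196). The other 4 were Adcy1, Mapk3, Camk2b and Prkar1b. The salt-inducible kinases Sik1, Sik2 and Sik3 were not called (log2 fold changes -0.13, 0.18 and -0.10).

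Among 13 other ATF and CREB genes, 3 were lower and 1 was higher, with a median of -0.10, beside 10.3% of all genes called lower and 6.64% called higher. Creb3l3, a factor best known from liver, was higher at a low level over both housings (log2 fold change 0.82, adjusted p = 0.00298, edgeR) and in SC, with 2.17 to 3.05 CPM in CBP-ifKO mice against 0.869 to 1.26 CPM in control mice (1.27, adjusted p = 0.00943). In EE it was not called, with 1.49 to 1.81 CPM against 0.914 to 1.47 CPM (0.38, adjusted p = 0.432). Atf6, a sensor of the unfolded protein response, had a log2 fold change of -0.24 (adjusted p = 0.0161). The calls of Atf7 (-0.24, adjusted p = 0.0385) and Atf5 (-0.19, adjusted p = 0.0392) were lost in 6 and 9 of the 12 fits that left out a mouse.

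Among 36 genes induced by CREB or neuronal activity, 15 were lower and 1, Vip, was higher, with a list median of -0.19, beside 10.3% of all genes called lower and 6.64% called higher. The opioid precursors Pdyn and Penk, the synaptic organiser Nptx2 and the neurotrophin Bdnf were the lower genes with the smallest p. Pdyn was at 17.5, 13.3 and 17.1 CPM in control SC and 5.26, 6.37 and 6.30 CPM in CBP-ifKO SC, and its log2 fold change over both housings was -1.45 (SE 0.10, adjusted p = 1.30e-07, edgeR). Nptx2 had a log2 fold change of -1.02 (adjusted p = 1.92e-06), Penk of -0.88 (adjusted p = 8.92e-07) and Bdnf of -0.68 (adjusted p = 1.89e-05).

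Of the 4 targets printed above with a full CRE, Sst (-0.33, adjusted p = 0.00322), Scg2 (-0.23, adjusted p = 0.00582) and Cartpt (-0.70, adjusted p = 0.0105) were called lower, and Dusp1 (-0.31, adjusted p = 0.414) was not, beside 15 of 36 targets and 10.3% of all genes called lower. These 4 were named after their values were seen. The other listed genes with a full CRE were not called, namely Creb5 and the upstream genes Prkar1a (-0.03, adjusted p = 0.632) and Ppp2ca (-0.09, adjusted p = 0.0503). Of the 26 target genes with a promoter window, 4 held the full CRE and 22 the core. The call of Vip (0.21, adjusted p = 0.0361) was lost in 7 of the 12 fits that left out a mouse. Bulk counts do not show which cells the differences of Sst, Vip and the other targets came from. Vip was also among the interneuron markers, and interneurons do not express the Cre driver. Whether the CREs have a part in these differences was not tested.

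EE was tested on the same lists. Over both genotypes Nptx2 (log2 fold change 0.69, adjusted p = 0.00555) and Penk (0.45, adjusted p = 0.0149, edgeR) were the 2 targets called, both higher in EE as 0.0603% of all genes were, and 0 of the 34 upstream genes and 0 of the 13 other factors were, with 5 and 3 at an unadjusted p below 0.05, as 9.44% of all genes were. DESeq2 called 5 of the 36 targets and 1 of the 34 upstream genes, and edgeR without a filter on low counts called 10 targets. Nptx2 was at 25.2, 29.3 and 27.7 CPM in control EE against 15.3, 15.6 and 19.7 CPM in control SC, and at 11.3, 13.0 and 15.9 CPM in CBP-ifKO EE against 8.67, 7.82 and 8.63 CPM in CBP-ifKO SC. Both targets thus were higher in EE and lower in CBP-ifKO mice. The Penk call for EE was lost without control EE replicate 3 (adjusted p = 0.0542) or CBP-ifKO EE replicate 3 (adjusted p = 0.0642).

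**Figure D4:**
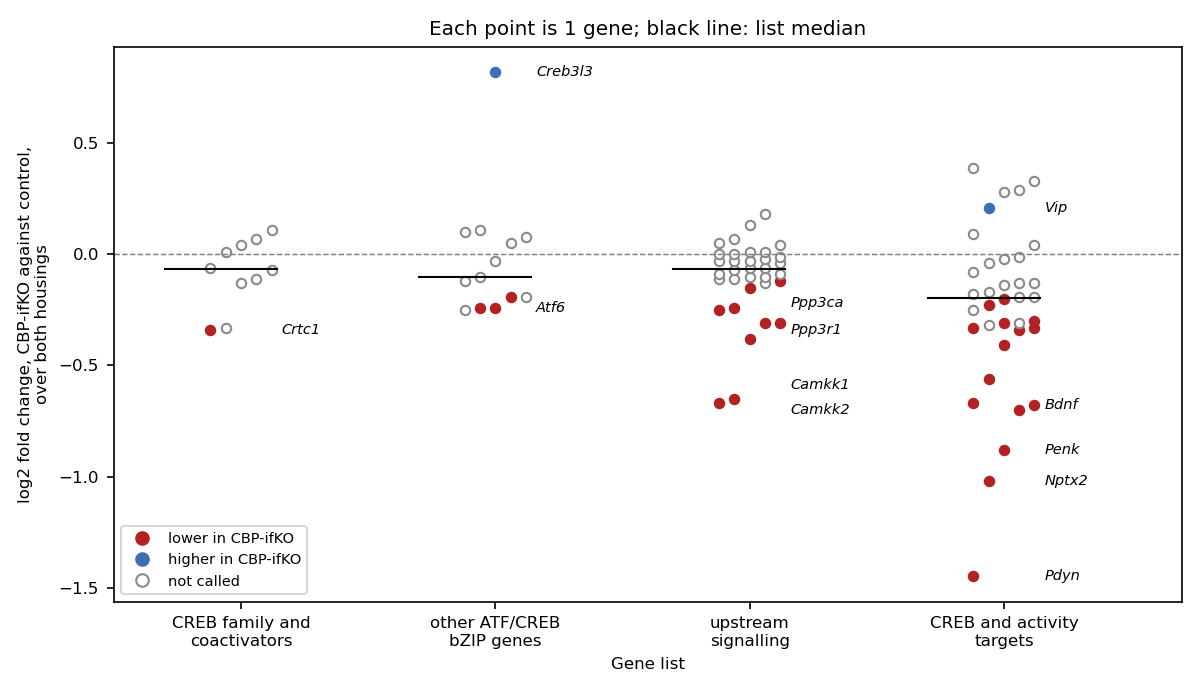
Log2 fold change of CBP-ifKO against control over both housings for each gene of 4 lists, with the list median as a black line. Red points were called lower and blue points higher, and Pdyn (-1.45) and Nptx2 (-1.02) lie at the bottom while 1 of the 10 genes of the CREB family and its coactivators, Crtc1, is red.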

How the data were processed

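Hippocampal RNA from 12 mice was sequenced as single-end reads, in 2 runs per mouse. Count columns are labelled as merged, so each mouse is 1 replicate and p-values measure the spread between mice. Since all CBP-ifKO counts are even, a merge of 2 different runs is not certain for these mice. Any effect of how runs were combined goes with genotype and cannot be told apart from it. The authors deposited unnormalized counts for each gene. Per the labels and the study's methods, reads were checked with FastQC 0.11.8, trimmed with Trim Galore 0.6.4, aligned with STAR 2.6.1 to GRCm38 (mm10), kept at mapping quality above 10 and counted on exons with Rsubread and Ensembl release 99. The strand setting is not given in the sources used here. The table also holds gene lengths, used for TPM, and all 12 count columns were used.

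Genes were filtered with filterByExpr by group, scaled by TMM and tested with edgeR 4.0.16 (quasi-likelihood, R 4.3.3). Genotype effects within a housing were fitted on 6 mice and the other comparisons on 12 mice by group. Genes with a Benjamini-Hochberg adjusted p below 0.05 were called, with p-values adjusted over all genes tested. Standard errors and 95% intervals come from the fitted coefficient and its F statistic. The scripts were tested on simulated data. DESeq2 1.42.0, other scalings and filters, halved CBP-ifKO counts (all are even), a block for the replicate number and leaving out each mouse were tried, and GC offsets were added after the data were seen.

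All 10 genes were named, and from each pathway list up to 4 genes called in each direction with the smallest p over both housings or both genotypes. Camk4, Ppp3cb, Sik1 to Sik3, the markers Nrgn, Neurod6, Camk2a, Aldh1l1, Kl and Ttr and the listed genes with a full CRE were named after their values were seen. They were named for their roles, values or promoters. The 10 genes and the lists were chosen with earlier results of these data known. Promoter windows come from RefSeq (GRCm38.p6), and a motif was counted on both strands. Exon overlaps and shared 50-base stretches were computed from GENCODE for GRCm38.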

Additional observations from a re-analysis of the deposited data

How the results depend on the processing

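Crtc1 remained lower in CBP-ifKO mice and called in SC, in EE and over both housings under each alternative that kept all mice, with an adjusted p of at most 0.0402, 0.00803 and 1.47e-04. For EE against SC, where 0 of the 10 genes were called, 1, Crtc1, was called by DESeq2 and 1, again Crtc1, without a filter on low counts, both in CBP-ifKO mice and over both genotypes. Among 1300 refits of a single gene of the 10 in 7 comparisons, 19 changed the sign of a value at 2 decimals. Of these, 0 were called in either fit, with main values of at most 0.14 and alternative values of at most 0.06 in size. A value that rounds to 0 at 2 decimals has no sign and was not counted. The cause was not tested for any of these shifts.

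Counts over all genes moved by more than 1.5 times in these cases. Without the filter they came to 1512 for genotype in SC, 1677 in EE, 145 for EE in control mice, 247 in CBP-ifKO mice, 334 over both genotypes and 110 for the interaction. DESeq2 called 1296 for genotype in EE and 15, 54 and 158 for EE in control mice, in CBP-ifKO mice and over both genotypes. A fit of all 12 mice called 1293 for genotype in EE, and halving the CBP-ifKO counts left 0 for EE in CBP-ifKO mice. Between mice with the same replicate number, profiles with group means removed correlated unevenly. The lowest correlation per pair of groups ran from -0.0675 to 0.0341. The highest was 0.305 for control SC with control EE, where different numbers gave -0.251 to 0.0724. It was 0.124 for control EE with CBP-ifKO EE and at most 0.102 for other pairs. The numbers thus did not pair all mice, and whether some share a batch was not tested. The replicate block called 17 and 48 for EE in CBP-ifKO mice and over both genotypes, and with GC offsets 22 and 67, and 1560 for genotype in EE. Neither changed a call among the 10 genes.

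With each mouse left out, genes called ranged from 399 to 1908 for genotype in SC (without CBP-ifKO replicate 2 and control replicate 2), from 285 to 1016 in EE (without control replicates 3 and 2), from 0 to 5, 0 to 10 and 7 to 42 for EE in control mice, in CBP-ifKO mice and over both genotypes. The number of the 10 genes called ranged from 0 to 1 for genotype in SC and from 0 to 1 in EE. A group left with 2 mice took its spread from all mice of the fit. Over the alternatives that kept all mice, upstream genes called for genotype over both housings ranged from 9 to 14 and targets from 16 to 23. Targets called ranged from 10 to 17 for genotype in SC, from 6 to 16 in EE and from 2 to 10 for EE over both genotypes. GC offsets ended the calls of Atf5 (adjusted p = 0.119) and Vip (adjusted p = 0.125).

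Creb5 and Creb3l1, the lowest of the 10 genes, had the widest 95% intervals over both housings, and the part of depth in this was not tested. Reads from opposite strands at Creb3 and Crem could not be separated.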
